A study of Rattus norvegicus with 12 samples.

Results

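In rat hippocampus, 107 genes of the deposited table were lower in each of 9 stressed libraries than in any of 3 unstressed ones, and stayed low whether the stressed rats received saline, fluoxetine or albiflorin. They were chosen by measured values, from 12719 rows with an Ensembl gene ID and a mean of 1 to 1000 FPKM over 12 libraries (FPKM are reads scaled by gene length and by library total), out of 28959 rows in the table. A gene was selected on 3 criteria. Its highest stressed library lay below its lowest unstressed library, the mean of the stressed saline group was at most 0.85 of the unstressed mean, and the mean of each drug group lay at or below the midpoint of those means. All values from the contrasts of stressed with unstressed libraries are therefore a description of the selection, and no test is drawn from them.

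The Ctrl-Sal group (n = 3) held Sprague Dawley rats without stress that received saline. The CUMS-Sal group (n = 3) went through chronic unpredictable mild stress for 5 weeks and received saline. CUMS-Flx rats (n = 3) had the same stress with fluoxetine for 7 days, and CUMS-Alb rats (n = 3) had it with albiflorin at 7 mg/kg/d for 7 days. The fluoxetine dose differs between sources, with 10 mg/kg/d stated per sample and 7 mg/kg/d for the whole series. The stated age was 6 to 7 weeks in every group. The labels do not state whether replicates are separate animals, and each p-value below reflects library-to-library spread that could be technical.

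Chronic unpredictable mild stress exposes rodents to a changing series of mild stressors and is used to model features of depression. The hippocampus carries corticosteroid receptors, takes part in ending the hormonal stress response, and is a usual tissue for such studies. Fluoxetine blocks the reuptake of serotonin, and albiflorin is a monoterpene glycoside of peony root. Most messenger RNAs of a cell come from nuclear genes, while a small set of very abundant ones is transcribed from mitochondrial DNA. The upper limit of 1000 FPKM was meant to leave the latter out.

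The row IDs could not be paired with gene symbols from the sources used here (0 of 107 matched). No member is named by symbol, so the members could not be ordered by role, none was placed on a chromosome, and neither the nuclear origin of the members nor the labelled tissue was checked against marker genes. The account below therefore sorts the members by level, transcript length, library and treatment.

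The libraries held 14735953 to 18109623 reads, recovered from the steps between FPKM values, and the 107 genes took 0.541% to 0.789% of the reads of a library. The share of reads in the 31 rows above 1000 FPKM differed among the Ctrl-Sal and CUMS-Flx libraries. It was 24.4%, 26.0% and 21.4% in Ctrl-Sal replicates 1, 2 and 3, and 22.8%, 19.5% and 19.1% in CUMS-Flx. Ctrl-Sal replicate 3 lay farthest from the others of its group, below them, and CUMS-Flx replicate 1 lay above the others of its own. The share was 18.5% to 18.9% in CUMS-Sal and 18.4% to 19.4% in CUMS-Alb.

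In the FPKM as deposited, few genes went down with stress in this way. Of the 12719 genes in the FPKM range, 193 (1.52%) had every stressed library below every Ctrl-Sal library, while 999 (7.85%) had every stressed library above. These counts depend on the scaling. They were 511 below and 631 above with rescaling to the reads outside the rows above 1000 FPKM. With median deviations set to 0 they were 502 and 629, and after quantile normalization 531 and 593. The limit on the ratio kept 112 of the 193. The midpoint for albiflorin then left out 4 and that for fluoxetine 1. The separation of all 9 stressed libraries from Ctrl-Sal had already required the 6 drug-treated libraries to be low. Of the genes just inside the limit, the ratios of CUMS-Sal to Ctrl-Sal were 0.849, 0.847 and 0.845. The nearest genes outside it, which met every other criterion, stood at 0.850173, 0.850443 and 0.851585. Outside the FPKM range, 2 of 31 Ensembl rows above 1000 FPKM met the other criteria, as did 11 of 1157 Ensembl rows of 0.5 to 1 FPKM. Among 848 rows without an Ensembl ID in the FPKM range 7 did (0.825%), close to the 0.841% of Ensembl rows.

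Most members were moderately lower. The ratio of CUMS-Sal to Ctrl-Sal ran from 0.319 to 0.849 with a median of 0.776, against a median of 1.08 for all 12719 genes. It was at most 0.5 in 5 members, between 0.5 and 0.7 in 17, between 0.7 and 0.8 in 48 and above 0.8 in 37. The CUMS-Flx and CUMS-Alb means stood at a median of 0.789 and 0.778 of the Ctrl-Sal mean. FPKM are shares of a library, and in a whole tissue fewer cells of a type and less RNA per cell cannot be told apart.

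Library by library, the median member stood at 96.9%, 106% and 95.7% of its Ctrl-Sal mean in Ctrl-Sal replicates 1, 2 and 3. In CUMS-Sal it stood at 77.9%, 74.6% and 80.8%, in CUMS-Flx at 82.0%, 79.0% and 73.8%, and in CUMS-Alb at 79.4%, 76.4% and 77.1%. Averaged over libraries these medians were 77.8% ± 3.14 in CUMS-Sal, 78.3% ± 4.16 in CUMS-Flx and 77.7% ± 1.54 in CUMS-Alb (SD, n = 3). The stressed groups lay within 1 SD of each other. The rule had placed all their libraries below Ctrl-Sal and limited both drug means, so this closeness is a description. The median of all genes in the FPKM range moved the other way, to 108% ± 0.402 in CUMS-Sal, 104% ± 2.41 in CUMS-Flx and 107% ± 1.52 in CUMS-Alb. That opposite move belongs to the FPKM as deposited, where the median ratio of CUMS-Sal to Ctrl-Sal over all these genes was 1.08. It was 1.01 with rescaling to the reads outside the rows above 1000 FPKM, 1.006 with libraries centred on their median deviation and 0.987 after quantile normalization.

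**Figure D1:**
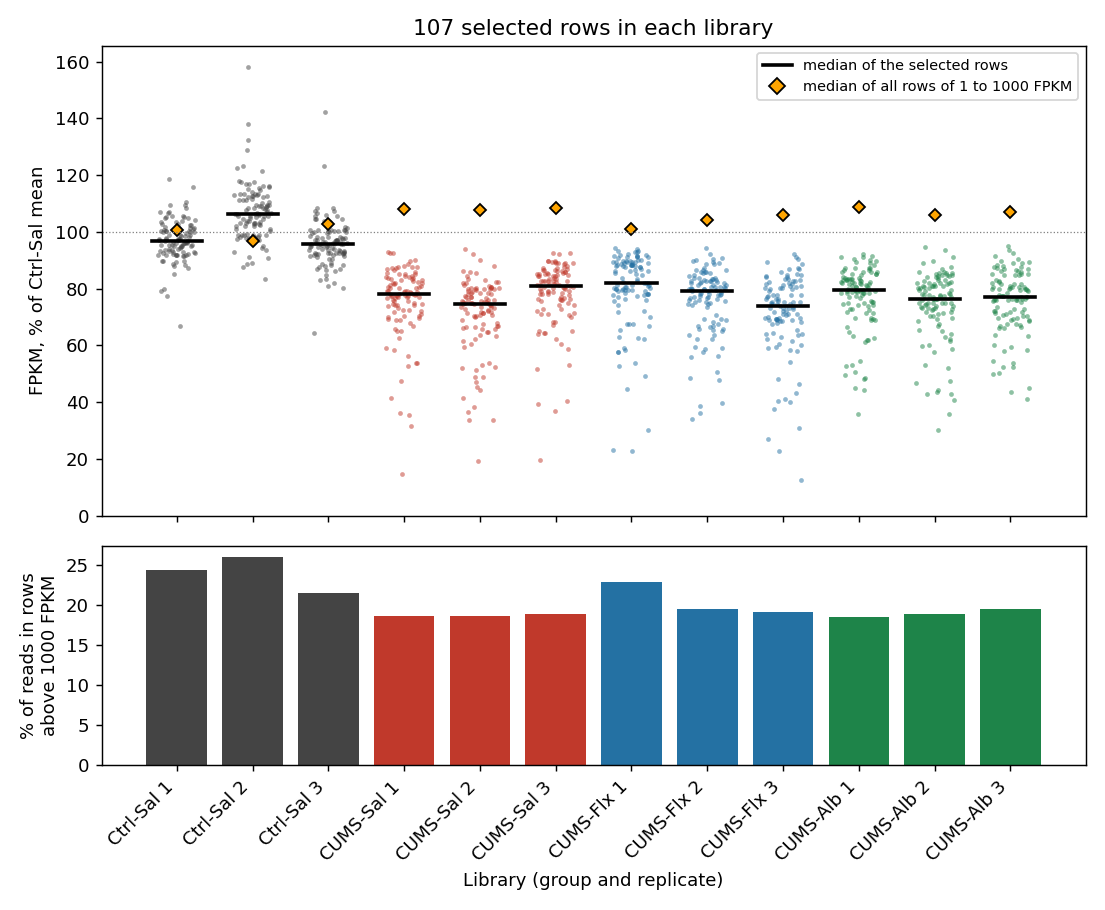
Upper panel: FPKM of each of the 107 genes (points) in the 12 libraries as a percentage of the gene's Ctrl-Sal mean, with the median of the 107 (bar) and of all 12719 genes of 1 to 1000 FPKM (diamond). Lower panel: percentage of each library's reads in rows above 1000 FPKM. The stressed libraries have member medians of 73.8% to 82.0%, below the 3 Ctrl-Sal libraries at 95.7% to 106%.

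Ctrl-Sal replicate 2 carried the highest value of a member more often than the other unstressed libraries. It was the highest Ctrl-Sal library for 73 of 107 members (68.2%), against 30.9% of all genes in the range, and for 12 of the 13 members of at least 100 FPKM. Among stressed libraries, CUMS-Flx replicate 1 was the highest of the 9 for 41 members, followed by CUMS-Sal replicate 3 for 23. CUMS-Sal replicate 2 was the lowest of the 9 for 34 and CUMS-Flx replicate 3 for 26. Shares over all genes were taken within groups only. Within its group, CUMS-Flx replicate 1 was the highest for 62.6% of members and 24.3% of all genes in the range. It was the lowest for 12 members and 50.5% of all genes. Ctrl-Sal replicate 2 was the lowest of its group for 12 members and 49.3% of all genes. Ctrl-Sal replicate 2 and CUMS-Flx replicate 1 are also the libraries with the largest share of reads above 1000 FPKM in their groups, and the part of that share in the member values was not tested. Without Ctrl-Sal replicate 2 the median ratio of the 107 was 0.804 and 87 still had a ratio of at most 0.85. The rule applied without that library selected 135 genes, 85 of them among the 107. Without CUMS-Flx replicate 1 it selected 196, 106 of them among the 107.

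The gap between the groups was narrow for many members. The lowest Ctrl-Sal library exceeded the highest stressed library by a median of 1.049-fold. The gap was at least 1.1-fold in 18 and at least 1.2-fold in 5, with a largest value of 1.80-fold.

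The pair of members with the lowest ratios rested on few reads. ENSRNOG00000027593, with a recovered length of 327 bp, had the lowest ratio, 0.319. It stood at 2.70, 2.54 and 2.84 FPKM in Ctrl-Sal, 0.391, 1.19 and 0.994 in CUMS-Sal, 2.14, 0.914 and 0.338 in CUMS-Flx and 1.19, 1.43 and 1.60 in CUMS-Alb. The Ctrl-Sal values lay close together, while those of CUMS-Flx spread over most of the range below them. The Ctrl-Sal values rest on 13, 13 and 15 reads, those of CUMS-Sal on 2, 6 and 5.

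ENSRNOG00000004843, of 438 bp, came next with a ratio of 0.341. Its Ctrl-Sal libraries held 3.56, 7.30 and 2.97 FPKM, and those of CUMS-Sal held 1.46, 0.891 and 2.37. CUMS-Flx libraries held 1.06, 1.77 and 1.89 FPKM and CUMS-Alb libraries 2.07, 2.002 and 2.52. Ctrl-Sal replicate 2 alone lay far above the rest here, with 50 reads against 23 and 21 in the other unstressed libraries, and without it the log2 difference between CUMS-Sal and Ctrl-Sal, on the scale log2(FPKM + 0.5), was -0.92 in place of -1.27. Of the 5 members with a ratio of at most 0.5, 3 had a mean under 50 reads per library, and the median coefficient of variation within Ctrl-Sal was 32.9%. For the 37 members above 0.8 it was 6.64%, with a median of 344 reads.

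Members of high level had ratios in a narrower range. The 13 members of 100 to 1000 FPKM held 58.4% of the members' reads, with at least 750 reads in every library and ratios of 0.703 to 0.845. The most abundant one, of 1738 bp, held 972, 1201 and 984 FPKM without stress, against 887, 840 and 820 in CUMS-Sal. In CUMS-Flx it stood at 968, 950 and 857 and in CUMS-Alb at 849, 867 and 897. CUMS-Flx replicate 1 reached almost to the lowest Ctrl-Sal library, so this gene met the rule by a small margin. The 26 members of 1 to 5 FPKM had a median ratio of 0.703, the 31 of 5 to 20 FPKM 0.797, the 37 of 20 to 100 FPKM 0.776 and the 13 above 0.807.

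Transcript length was no criterion of the selection, and the members were mostly shorter than other genes, given here as a description with no test. The median recovered length was 1226 bp over the 107 and 2153 bp over the 12719 genes of the FPKM range. Members made up 1.998% of genes of up to 800 bp, 1.60% of those over 800 and up to 1600 bp, 0.727% of those over 1600 and up to 2800 bp and 0.140% of longer ones. Genes with every stressed library above every Ctrl-Sal library ran in the opposite order, from 3.54% of the shortest class to 11.6% of the longest. Short members also had lower ratios, with medians of 0.706 up to 800 bp, 0.776, 0.796 and 0.817 over 2800 bp. The median level of members also fell with length, from 27.4 FPKM up to 800 bp to 3.84 FPKM over 2800 bp, and the part of length in the selection was not tested.

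**Figure D2:**
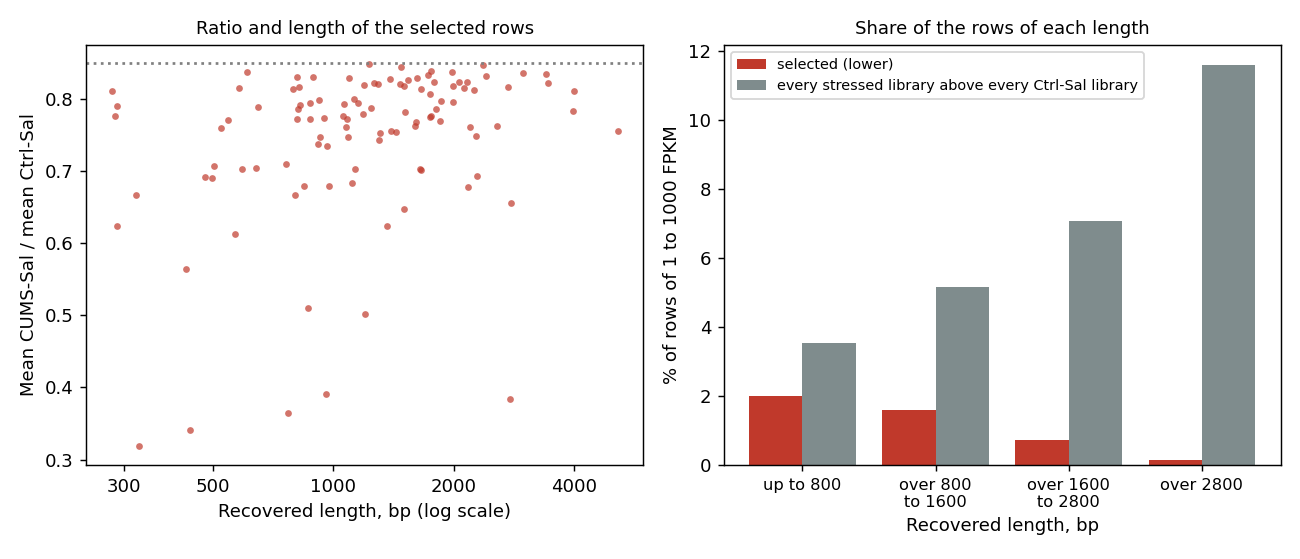
Left: ratio of mean CUMS-Sal to mean Ctrl-Sal FPKM of each member against recovered length in bp (log scale), with the limit of 0.85 dotted. Right: percentage of the genes of 1 to 1000 FPKM in each length class that were selected (lower), or that had every stressed library above every Ctrl-Sal library. The selected share falls from 1.998% to 0.140% with length and the higher share rises from 3.54% to 11.6%.

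The call counts of single genes against Ctrl-Sal describe the selection and are given with their background. By limma at an adjusted p under 0.05 over 15253 tested rows, 58 of the 107 members were called lower in CUMS-Sal, where 1.14% of all rows were. In CUMS-Alb 25 members were called lower, where 0.321% of all rows were, and in CUMS-Flx 2, where 0.0197% were. The 3 comparisons share the Ctrl-Sal libraries. A fit of only the compared groups called 0 members in each of them, and limma without trend and robust settings called 30 for CUMS-Sal and 0 for either drug group. Every one of the 3 counts depended on single libraries. The CUMS-Sal count was 13 without Ctrl-Sal replicate 2. It was 18, 0 and 2 without CUMS-Sal replicates 1, 2 and 3, 28 without CUMS-Flx replicate 2, and 26, 27 and 29 without CUMS-Alb replicates 1, 2 and 3. The CUMS-Alb count was 59 without Ctrl-Sal replicate 3 and at most 5 without Ctrl-Sal replicate 2, any CUMS-Sal or CUMS-Alb library, or CUMS-Flx replicate 2 or 3. The CUMS-Flx count was 25 without Ctrl-Sal replicate 3 and 4 without Ctrl-Sal replicate 1. It was 0 without Ctrl-Sal replicate 2, any CUMS-Sal library, or replicate 2 or 3 of CUMS-Flx or CUMS-Alb.

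The pair called lower in CUMS-Flx was named after its values were seen. ENSRNOG00000055068, of 768 bp, stood at 24.0, 36.4 and 22.1 FPKM in Ctrl-Sal, and all 9 stressed libraries lay far below. Their values were 9.73, 9.31 and 11.1 in CUMS-Sal, 12.3, 10.9 and 7.41 in CUMS-Flx and 9.88, 9.82 and 12.02 in CUMS-Alb. The means were 10.2 ± 2.51 in CUMS-Flx and 10.6 ± 1.253 in CUMS-Alb, against 10.0 ± 0.927 in CUMS-Sal (SD, n = 3). As the rule limits both drug means from above, their closeness to CUMS-Sal is a description.

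ENSRNOG00000032297, of 1849 bp, showed a smaller and steadier difference. Ctrl-Sal libraries held 65.9, 71.8 and 66.5 FPKM, and CUMS-Sal libraries 51.6, 52.4 and 53.2. CUMS-Flx held 54.2, 46.4 and 47.0 and CUMS-Alb 53.8, 53.2 and 52.7. With 1436 to 2077 reads in a library, counting error is small for this gene. Its libraries lay close together in CUMS-Sal (SD 0.786) and CUMS-Alb (SD 0.571) and were more spread in CUMS-Flx (SD 4.34).

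**Figure D3:**
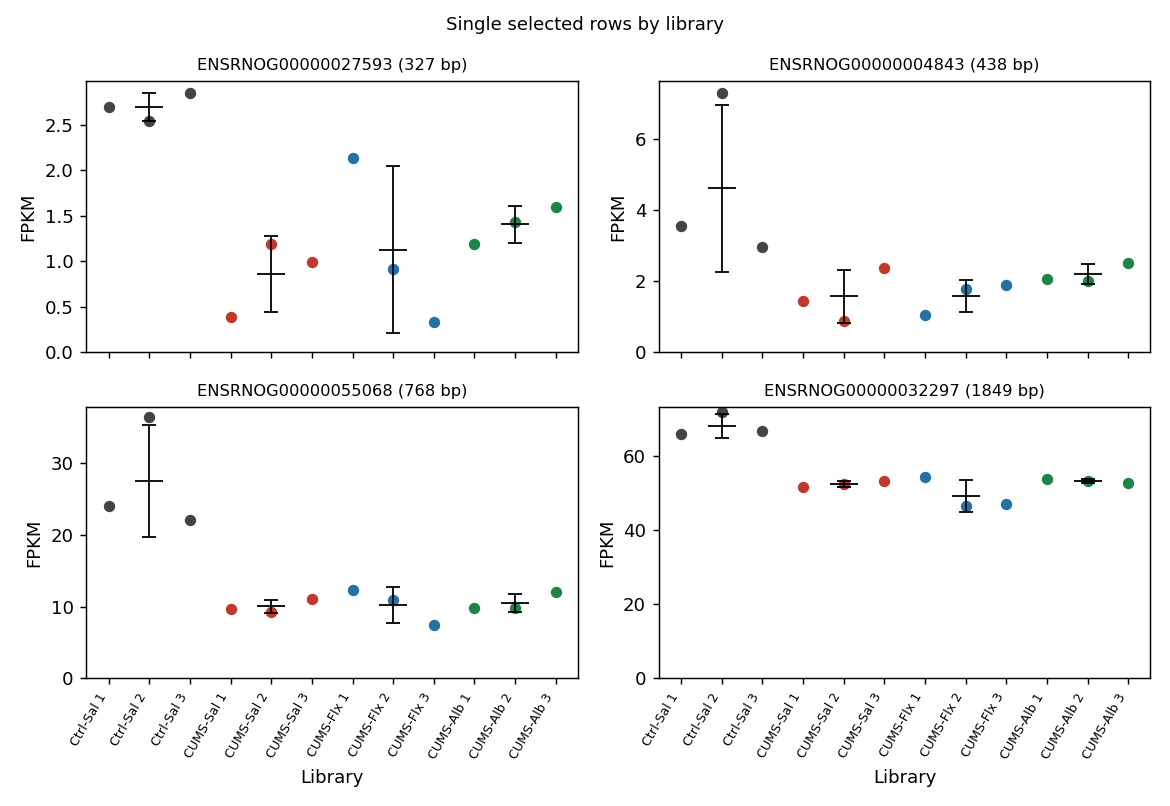
FPKM of 4 single members in each of the 12 libraries (points), with the mean and SD of each group of 3 (dash and bars). ENSRNOG00000027593 and ENSRNOG00000004843 rest on 2 to 50 reads per library, with a wide spread in CUMS-Flx of the first and Ctrl-Sal of the second. In ENSRNOG00000032297 the Ctrl-Sal libraries stand at 65.9 to 71.8 and the stressed ones at 46.4 to 54.2.

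Under either drug the members stood on average at the level of stressed saline rats, within the limit that the rule sets. On a scale from the CUMS-Sal mean (0%) to the Ctrl-Sal mean (100%), the median member lay at 5.00% in CUMS-Flx (quartiles -9.90% and 20.4%) and at 3.23% in CUMS-Alb (quartiles -10.1% and 15.5%). The highest values were 43.0% and 45.4%, and the rule allowed none above the midpoint. CUMS-Flx was below CUMS-Sal in 46 members and CUMS-Alb in 45. Both drug groups were below it in 26 members and neither was in 42. Without CUMS-Flx replicate 1, CUMS-Flx was below CUMS-Sal in 61 members and its median position was -5.08%. The lowest of the stressed means was that of CUMS-Sal in 42 members, of CUMS-Flx in 34 and of CUMS-Alb in 31.

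**Figure D4:**
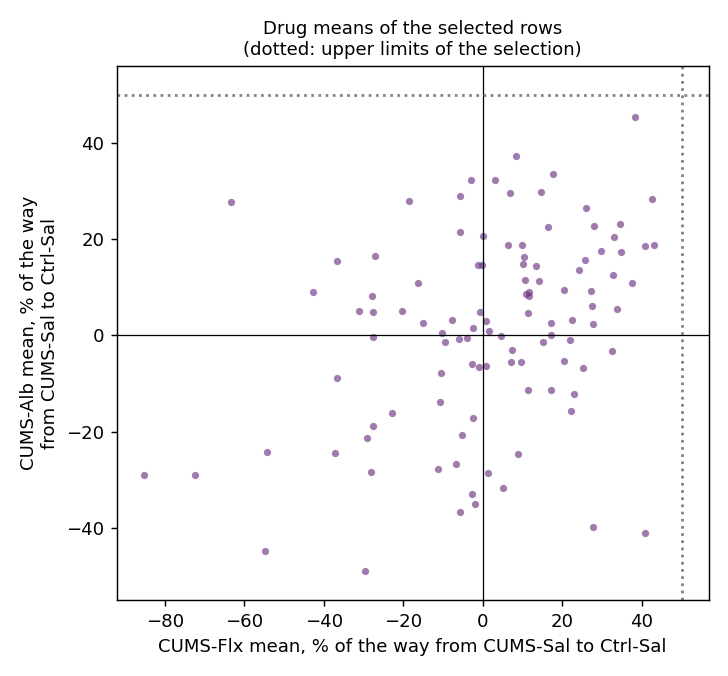
Position of the CUMS-Flx mean (horizontal) and the CUMS-Alb mean (vertical) of each of the 107 members, in percent of the way from its CUMS-Sal mean (0) to its Ctrl-Sal mean (100), with the upper limits of the selection dotted. Both axes use the same CUMS-Sal and Ctrl-Sal libraries, so points can line up for that reason alone. Points lie on both sides of 0 for each drug, with medians of 5.00% and 3.23%.

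No member differed between a drug and saline by limma at an adjusted p under 0.05. For CUMS-Flx against CUMS-Sal 0 of 107 members and 0% of all rows were called, with a lowest adjusted p of 0.384 among members. At an unadjusted p under 0.05, 2 members were lower (7.76% of all rows) and 1 higher (2.22%). The libraries did not overlap in 2 members that were lower (13.6% of all rows) and 5 that were higher (4.25%). For CUMS-Alb against CUMS-Sal 0 of 107 members and 0% of all rows were called. At an unadjusted p under 0.05, 0 members were lower (2.01% of all rows) and 0 higher (1.66%). The libraries did not overlap in 1 lower member (6.5% of all rows) and 3 higher ones (4.75%). The rule limits both drug means, so these counts are descriptions. Limma-voom on recovered reads also called 0 members in each.

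CUMS-Alb against CUMS-Flx is the contrast that the rule did not use, although it bounds both means from above. No member differed by limma with Benjamini-Hochberg adjustment over 15253 rows (0 of 107 called, where 0.00656% of all rows were, and lowest adjusted p = 0.955). At an unadjusted p under 0.05, 1 member was lower in CUMS-Alb (0.931% of all rows) and 3 were higher (4.05%). The libraries did not overlap in 3 members lower in CUMS-Alb (3.13% of all rows) and 8 higher (10.6%). The CUMS-Alb mean was above the CUMS-Flx mean in 50 members (46.7%) and in 65.2% of all genes of the FPKM range. Unadjusted 95% intervals of the difference lay within 1.5-fold in 100 members and within 2-fold in 104. The rule kept every drug library below the lowest Ctrl-Sal library, which restricts such differences in advance, so these intervals are a description. The misses do not show that the drugs acted alike.

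Single members with the smallest p in the drug contrast had modest differences. ENSRNOG00000043068, of 846 bp, was lower with albiflorin, at 2.91, 3.39 and 2.74 FPKM against 3.85, 4.52 and 5.03 with fluoxetine. The groups did not overlap, and the log2 difference was -0.50 (SE 0.16, 95% interval -0.85 to -0.14, limma adjusted p = 0.955). Its CUMS-Sal libraries, at 3.62, 2.69 and 4.92, overlapped both drug groups, and Ctrl-Sal stood at 5.45, 5.82 and 5.28.

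ENSRNOG00000010085, of 1226 bp, was higher with albiflorin, at 15.5, 15.98 and 16.4 FPKM against 14.1, 14.1 and 12.3 with fluoxetine. Again the groups did not overlap (log2 difference 0.24, SE 0.08, 95% interval 0.06 to 0.41, limma adjusted p = 0.955). Its CUMS-Sal libraries stood at 14.4, 14.7 and 16.6 and its Ctrl-Sal libraries at 18.9, 18.1 and 16.8, so replicate 3 of those groups nearly met. This gene is also the one nearest inside the limit on the ratio.

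ENSRNOG00000009550, of 2726 bp, was higher with albiflorin by a log2 difference of 0.15 (SE 0.07, 95% interval 0.00 to 0.29, limma adjusted p = 0.955). Its CUMS-Alb libraries held 29.7, 30.2 and 29.9 FPKM and its CUMS-Flx libraries 27.6, 27.5 and 25.9, with no overlap. ENSRNOG00000042502, of 2061 bp, was at 5.63, 7.43 and 6.62 FPKM with albiflorin and 7.93, 7.80 and 7.05 with fluoxetine, where the groups overlapped (log2 difference -0.20, SE 0.11, limma adjusted p = 0.955).

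The scaling of the libraries changed how many genes met the rule. The scalings tried lower the stressed libraries relative to Ctrl-Sal for genes in general, and the median ratio of the 107 fell with them. The 107 were selected as low in the deposited FPKM, so their ratios here are a description. With values rescaled to the reads outside the 31 rows above 1000 FPKM, 280 genes met the rule, 99 of the 107 among them, and the median ratio of the 107 was 0.725. With every library centred on a median deviation of 0, 278 genes met it, 103 of the 107 among them, at a median ratio of 0.722. Quantile normalization gave 314 and 101, at 0.721. In the same order, genes separated downwards numbered 511, 502 and 531 and those separated upwards 631, 629 and 593, against 193 and 999 in the FPKM as deposited.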

How the data were processed

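Hippocampal RNA of 12 libraries in 4 groups of 3 was sequenced by the authors, who deposited 1 table of FPKM per gene. The unit was read from the values, since the header names none. TopHat2 and the build rn6 were used per the submitters' processing notes; for versions, read counter, annotation and strand setting the sources used here give nothing, so overlapping genes and near-identical copies could not be set apart. Groups came from sample titles.

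Gene lengths that give whole reads from the FPKM (within 0.0001 of a read) were found for 22737 of 22737 rows above 0. The shortest such length was taken, so length and reads can be too low where all reads of a row share a factor. Limma 3.58.1 in R 4.3.3, with trend and robust settings, fitted log2(FPKM + 0.5) of all 12 libraries over 15253 rows (mean FPKM 0.5 or more), with Benjamini-Hochberg adjustment and a threshold of 0.05. The pseudocount understates changes of low genes. Both steps were also run on simulated reads, without a shift in the rows above 1000 FPKM. The changes simulated for limma were larger than that of the median member, so these runs do not cover the setting of these data. Members and lists were chosen with earlier results of these data known. As no symbol matched, at most 2 row IDs are named per statement: the 2 of lowest ratio and the 2 per direction of smallest p between the drugs. Alternatives were 3 other scalings, pseudocounts of 0.1 and 1, other FPKM and ratio limits, plain limma, only the compared groups, a replicate block, limma-voom on recovered reads, and each library left out. The gene lists, cell type markers and promoter motifs prepared for the study matched no row and were not used. The labels state no pairing by replicate number. Deviations from group means correlated at -0.159 to 0.127 between libraries sharing a number, which with 3 libraries per group cannot decide whether a batch was shared.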

Additional observations from a re-analysis of the deposited data

How the results depend on the processing

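The number of genes meeting the rule, 107, became 70 with a ratio of at most 0.80, 280 with rescaling outside the rows above 1000 FPKM, 278 with median deviations set to 0 and 314 after quantile normalization. It ran from 94 to 292 when single libraries were left out. Leaving out a library also relaxes the rule, since fewer values must be separated; dropping Ctrl-Sal replicate 3 gave 292, dropping replicate 1 of that group 198 and dropping CUMS-Flx replicate 1 196.

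Members called lower in CUMS-Sal against Ctrl-Sal (58) became 12 with no filter above 0, 30 without trend and robust settings and 0 in a fit of only the compared groups, and ran from 0 to 66 when single libraries were left out. For CUMS-Alb against Ctrl-Sal (25) the count became 5 with rescaling, 9 with median deviations set to 0, 49 with a minimum mean of 5 FPKM, 48 by limma-voom on recovered reads, and 0 with no filter, without trend and robust settings and with only the compared groups, and ran from 0 to 59. For CUMS-Flx against Ctrl-Sal (2) it became 5 with rescaling, 9 after quantile normalization, 4 with a minimum mean of 5 FPKM, 11 by limma-voom, and 0 under the other 3 settings just named, and ran from 0 to 25. With the replicate number as a block these counts were 22 for CUMS-Sal, 0 for CUMS-Alb and 0 for CUMS-Flx; the libraries share a number and no stated pairing. The cause of these shifts was not tested. The 3 comparisons among stressed groups gave 0 called members under all 23 alternatives run, the replicate block included.

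ENSRNOG00000027593 and ENSRNOG00000004843 lost their CUMS-Sal calls under 14 of 21 and 9 of 22 alternatives, and ENSRNOG00000055068 and ENSRNOG00000032297 their CUMS-Flx calls under 12 of 23 each; none changed sign. Depth limits the members of fewest reads, 12 of which had a mean under 50 reads per library.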
